A study of Mus musculus with 17 samples.

Results

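The genes described here are 50 mitosis and spindle genes, taken as a list of gene symbols and read on the arrays through every probe annotated to them, with the probe of highest mean level standing for each gene. Of the 50 genes, 48 had an annotated probe and all 48 passed the filter on dim probes, out of 16462 named genes tested. Ccnb1, which encodes cyclin B1, and Mki67, which encodes the proliferation marker Ki-67, had no named probe and were not analysed here. The study measured RNA of mouse CD8+ T cells on Illumina bead arrays in 17 samples, and all of them carried the OT-I T cell receptor, a transgenic receptor that recognises an ovalbumin peptide, on a C57Bl/6 background at an age of 2 to 6 months. The 5 naive samples came from spleen. The 4 LSEC-primed samples came from coculture with liver sinusoidal endothelial cells (LSEC), and are the cells the study calls partial memory T cells (Tpm). The 5 effector samples (Teff) had been activated by dendritic cells (DC), 4 of them with coculture with splenic DC and effector sample 8 with spleen as the labelled source. The 3 memory samples were taken 3 months after infection with Listeria monocytogenes expressing ovalbumin (OVA). LSEC-primed sample 4 is labelled as LSEC-primed T cells where samples 7, 14 and 15 are labelled Tpm. The labels do not give culture times, nor do they state that each sample is its own animal or culture, so the p-values below measure the spread between these samples only.

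Mitosis is driven by the kinase CDK1 bound to cyclin A or cyclin B. The Polo and Aurora kinases build the spindle, the kinetochore couples each chromosome to microtubules, and the spindle checkpoint holds back the anaphase-promoting complex until every kinetochore is attached. When the checkpoint is satisfied, CDC20 turns on that complex, securin and cyclin B are degraded, separase opens the cohesin rings, and the midzone proteins organise cytokinesis. Transcripts of these genes are low in quiescent cells and peak in G2 and M phase. In quiescent cells the DREAM complex represses many of them, and in cycling cells B-Myb and FOXM1 joined to the MuvB core activate them. MuvB binds the cell cycle genes homology region (CHR), a TTTGAA or TTCGAA element near the start of transcription, which often lies downstream of CCAAT boxes bound by NF-Y. A T cell leaves quiescence on activation, divides rapidly as an effector cell, and returns largely to quiescence as a resting memory cell.

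The promoter letters of 8 members are shown because they hold, or lack, the elements through which this programme is known to be controlled. Each is RefSeq sequence of build GRCm38.p6 from 130 bases before to 30 bases from the annotated start, 5′ to 3′ on the gene's own strand. Capitals mark CHR matches (TTTGAA or TTCGAA, and TTCAAA where the match is on the other strand) and CCAAT matches (ATTGG on the other strand). Cdk1 (chr10:69352883-69353042, minus strand), Cdc20 (chr4:118437314-118437473, minus strand), Kif23 (chr9:61946770-61946929, minus strand), Cenpa (chr5:30666756-30666915, plus strand) and Top2a (chr11:99024160-99024319, minus strand) were higher in effector than in naive cells. Bub1 (chr2:127831830-127831989, minus strand) holds the same elements but its probes did not rise above background in any group. Nusap1 (chr2:119618168-119618327, plus strand) rose strongly without a match in this window. Pttg1 (chr11:43425952-43426111, minus strand) has no match and read slightly lower in effector cells, on a probe close to background.
Cdk1: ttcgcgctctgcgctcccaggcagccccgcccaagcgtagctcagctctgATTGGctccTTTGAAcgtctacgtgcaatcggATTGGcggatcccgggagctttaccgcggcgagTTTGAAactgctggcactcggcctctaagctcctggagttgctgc
Bub1: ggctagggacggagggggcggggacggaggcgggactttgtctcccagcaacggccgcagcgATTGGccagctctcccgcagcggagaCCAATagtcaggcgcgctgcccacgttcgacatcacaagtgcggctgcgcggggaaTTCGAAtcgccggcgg
Cdc20: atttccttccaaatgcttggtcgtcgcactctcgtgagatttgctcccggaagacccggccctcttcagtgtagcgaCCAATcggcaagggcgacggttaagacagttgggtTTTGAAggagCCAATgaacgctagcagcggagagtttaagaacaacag
Kif23: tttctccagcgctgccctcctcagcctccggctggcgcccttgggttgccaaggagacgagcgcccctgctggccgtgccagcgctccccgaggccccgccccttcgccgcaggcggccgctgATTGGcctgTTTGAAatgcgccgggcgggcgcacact
Cenpa: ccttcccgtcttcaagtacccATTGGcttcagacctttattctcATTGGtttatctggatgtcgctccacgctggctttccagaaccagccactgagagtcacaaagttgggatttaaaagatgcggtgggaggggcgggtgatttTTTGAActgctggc
Top2a: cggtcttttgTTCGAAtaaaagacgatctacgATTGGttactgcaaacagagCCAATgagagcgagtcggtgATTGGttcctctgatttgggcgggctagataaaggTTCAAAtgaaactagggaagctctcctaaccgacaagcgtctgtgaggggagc
Nusap1: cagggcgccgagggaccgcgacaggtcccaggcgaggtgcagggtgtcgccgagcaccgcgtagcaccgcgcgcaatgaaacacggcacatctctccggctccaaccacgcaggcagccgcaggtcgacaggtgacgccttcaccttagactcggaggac
Pttg1: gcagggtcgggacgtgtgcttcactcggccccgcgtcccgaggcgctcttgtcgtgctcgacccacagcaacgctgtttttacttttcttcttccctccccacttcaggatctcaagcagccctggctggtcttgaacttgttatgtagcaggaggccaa

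Over the whole window of 250 bases before to 50 after the start, 41 of the 50 genes matched a RefSeq promoter. A CHR match on either strand was present in 32 of the 41 (78.0%), against 18.2% of the promoters of 13186 genes tested on the arrays and 21.7% of all 27025 promoters. Within 100 bases before to 50 after the start, 30 members held one (73.2%), against 7.56% of the tested genes. CCAAT was found in 31 members (75.6%), against 42.3%, and 2 or more copies in 21 members (51.2%), against 14.8%. A CHR match near the start together with a CCAAT match was present in 27 members (65.9%) and in 3.37% of the tested genes. A CHR and a CCAAT match share a base in Cdca8 and in no other member, and these matches describe sequence and show no binding. Of the 31 members with a promoter that were called higher in effector over naive cells, 27 held a CHR match (87.1%), and so did 4 of the 8 that were measured and not called higher, namely Bub1, Ccnb2, Hmmr and Racgap1. Of those 8, Bub1, Ccnb2, Racgap1, Cenpe, Cks2 and Nuf2 were at background on every naive and effector array, and Hmmr exceeded it on 1 effector array alone. The lack of a call for these genes says nothing of their level, so the shares cannot be compared. The 9 promoters without a CHR match were those of Birc5, Ccnb1, Cenpe, Cks2, Mad2l1, Ncaph, Nuf2, Nusap1 and Pttg1.

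**Figure D1:**
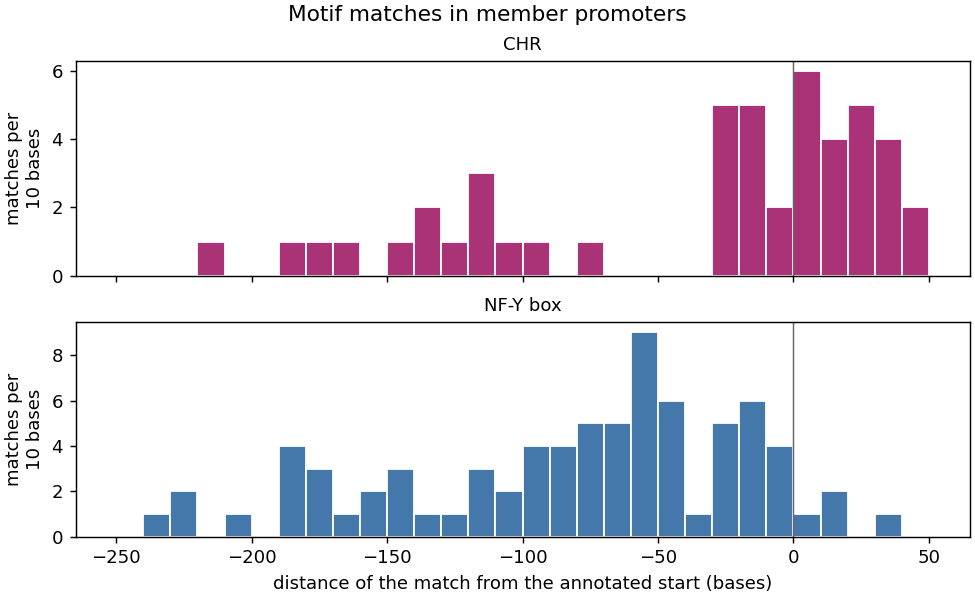
Number of CHR matches (upper panel) and CCAAT matches (NF-Y box, lower panel) per 10 bases over the promoters of the 41 members, against the distance of the match from the annotated start in bases. Ect2 and Prc1 each have another annotated start close by, and their matches are counted from both. CHR matches crowd from 30 bases before to 50 bases after the start, and CCAAT matches lie mostly upstream of it.

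Values below are log2 normalised intensities, made from the deposited signals by background correction with an offset of 50, so folds of dim genes are understated. A probe is called above background on an array where it exceeds the mode of that array's signals by more than 3 SD of their lower side. Of the CD8 T cell markers, 8 of the 9 measured were above background on every naive array, while the probe of Cd8a itself was not. The summed intensity of 22 liver endothelial markers was 5657 to 8574 on the LSEC-primed arrays, 1572 to 1907 on the naive, 2376 to 2786 on the effector and 1455 to 2943 on the memory arrays, and 14 of the 22 were above background on every LSEC-primed array, with Clec4g, Erg, Flt4, Kdr and Tie1 above it on none. Stellate cell markers summed to 1683 to 2739 on the LSEC-primed arrays and to at most 1057 elsewhere. Erythroid markers summed to 6237 to 30846 on naive and 5632 to 13640 on memory arrays, against 1808 to 3586 on the LSEC-primed and effector arrays. Dendritic cell and MHC class II genes summed to 8663 on LSEC-primed sample 14 and to 1256 to 1314 on the other LSEC-primed arrays (1125 to 3760 on the naive, effector and memory arrays), and macrophage genes to 3759 against 622 to 742. Macrophage genes also summed to 1314 on naive 1 and 1388 on naive 11, with 6 and 5 of 9 above background. Those sums were 661 to 1388 on the naive, 552 to 585 on the effector and 638 to 902 on the memory arrays. Of the 12 genes of that dendritic cell and MHC class II list, 5 were above background on every LSEC-primed array, sample 14 among them. Another 6 (Itgax, Flt3, Xcr1, Clec9a, Cd209a and Batf3) were above it on none. All 3 measured Y-linked genes were above background on naive 13, LSEC-primed 14 and effector 17, and on no other array were more than 1 of them. Memory sample 5 had the weakest array, with a mean intensity of 96.7 and 15.4% of probes above background, against 25.9% to 32.7% on the others, and memory sample 3 came next with a mean intensity of 140 against at least 227. The part of other cell types in the results was not tested, and memory results are given with and without samples 3 and 5.

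Mitosis genes were high in effector cells, intermediate in LSEC-primed cells, and low in naive and memory cells. The mean level of the 48 members was 6.84, 7.10, 6.91, 6.85 and 7.07 on naive arrays 1, 2, 11, 12 and 13 (6.96 ± 0.12, SD, n = 5). On LSEC-primed arrays 4, 7, 14 and 15 it was 7.35, 7.29, 8.02 and 7.49 (7.54 ± 0.33, SD, n = 4). On effector arrays 6, 8, 10, 16 and 17 it was 8.69, 8.75, 8.77, 8.72 and 8.62 (8.71 ± 0.06, SD, n = 5), and on memory arrays 3, 5 and 9 it was 6.74, 6.78 and 6.43 (6.65 ± 0.19, SD, n = 3). None of the 4 groups overlapped another in this mean, and the mean over all named genes stayed between 7.08 and 7.14 on every array. Quantile normalisation gives every array the same distribution of values, so a level mean over all named genes was largely fixed in advance. The same holds for the medians over all features and all named genes given below. They are reference points and not tests. The order effector, LSEC-primed, naive, memory was that of the group means for 31 of the 48 genes, and 5 more followed the same order with memory above naive. Both counts include genes whose order carries no level, such as Nuf2 among the 31 and Ccnb2 among the 5, at background on every array. Other genes were at background in some groups. The share of all features with this order was not computed, so the counts are a description only. Above background on every array of a group were 38 members in effector cells, 30 in LSEC-primed, 25 in naive and 13 in memory cells. The memory count is limited by memory sample 5, whose background stood at 7.56 on the log2 scale against 6.25 to 6.51 on the other arrays. On memory 3, 5 and 9 the members above background numbered 25, 14 and 21. The samples are bulk RNA, in which fewer dividing cells and less of a transcript per cell cannot be told apart.

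**Figure D2:**
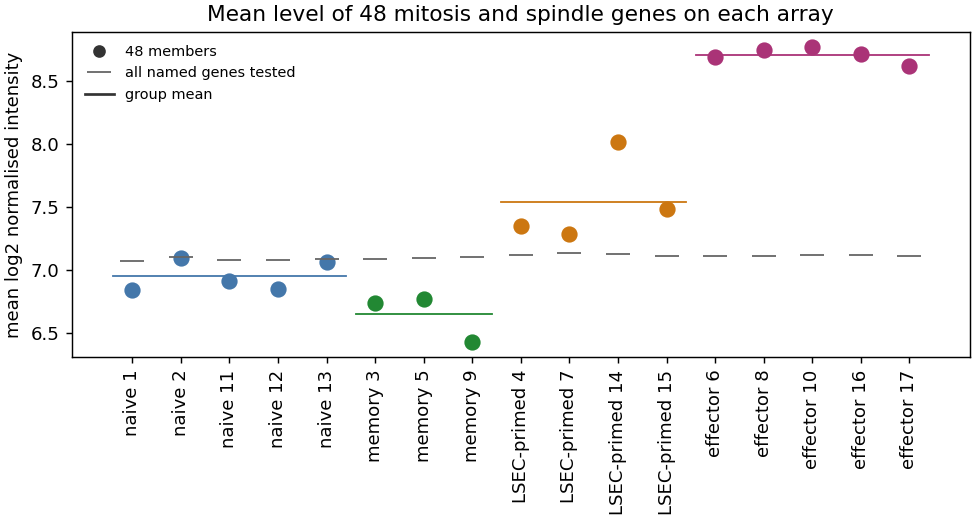
Mean log2 normalised intensity of the 48 members on each of the 17 arrays (points), with each group's mean (coloured line) and the mean of all named genes tested on the same array (grey dash). The grey dashes are level largely because of the normalisation. The 5 effector arrays sit between 8.62 and 8.77, the LSEC-primed arrays between 7.29 and 8.02, and the naive and memory arrays at or below 7.10.

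In effector over naive cells 37 of the 48 members were called higher and 1 lower (limma, Benjamini-Hochberg adjusted over all features, threshold 0.05), where 11.5% of all features were called higher and 11.4% lower. The groups did not overlap for 37 members, all with effector cells higher, against 11.1% of all features. The median member difference was 1.87 on the log2 scale, beside -0.01 for all features, and 32 members changed by at least 2-fold. In LSEC-primed over naive cells 20 members were called higher and none lower, where 7.75% of all features were called higher and 5.39% lower. The median member difference there was 0.49 beside 0.00, and 15 members changed by at least 2-fold. Naive and LSEC-primed arrays did not overlap for 21 members higher and 1 lower, against 7.74% and 5.49% of all features. Between LSEC-primed and effector cells 37 members were called lower and none higher, where 6.81% of all features were called lower and 7.99% higher, and the median was -1.40 beside 0.01. Effector and LSEC-primed arrays did not overlap for 37 members, all lower in LSEC-primed cells, against 7.01% of all features lower and 8.58% higher. These comparisons share samples, so their values are set side by side and not used as support for each other. The count of 20 rests in part on the scaling, since 10 members were called higher in LSEC-primed over naive cells when arrays were scaled to a common median.

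**Figure D3:**
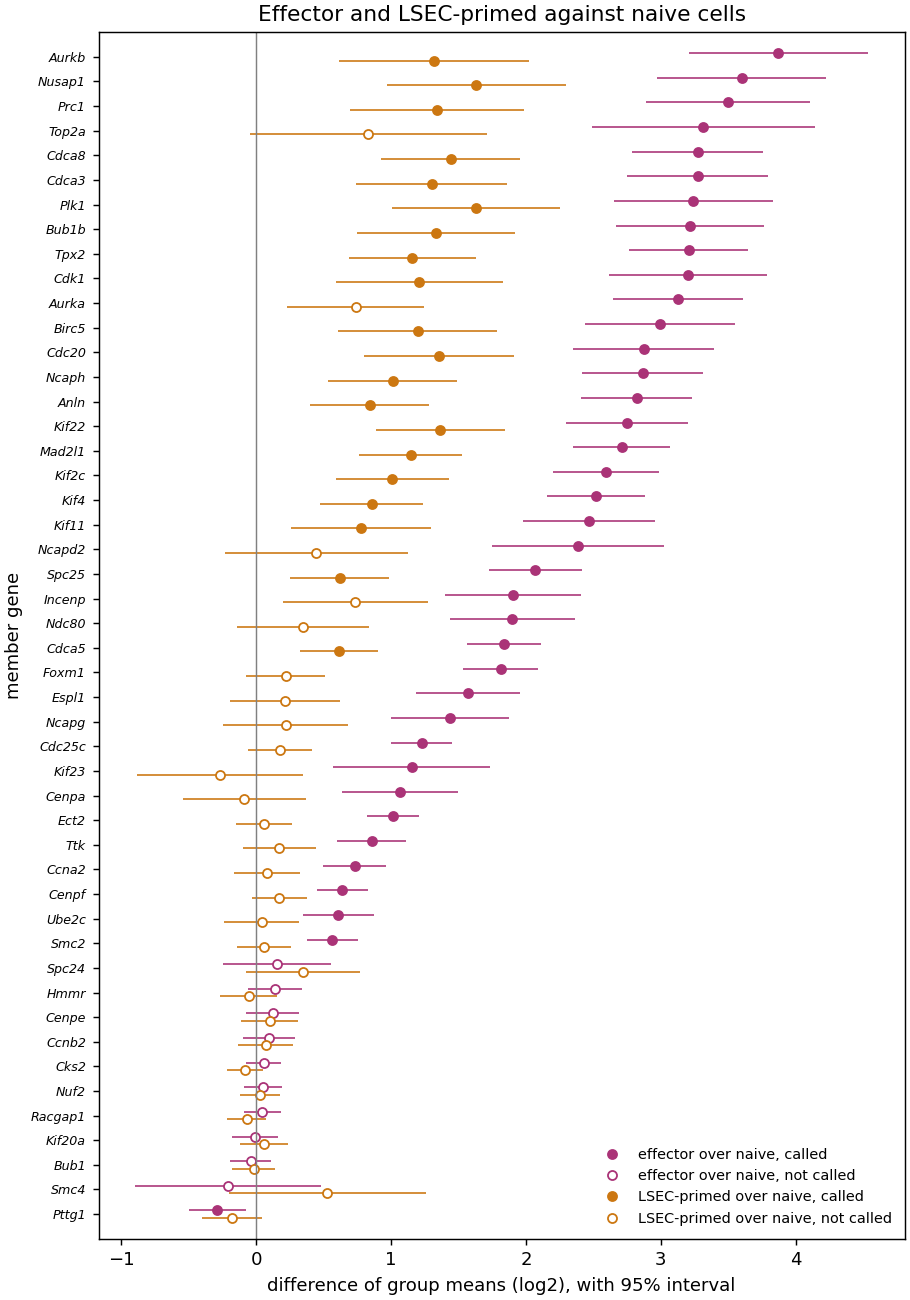
Difference of group means on the log2 scale for each of the 48 members, with its 95% interval, for effector over naive and LSEC-primed over naive cells. Filled points were called at an adjusted p under 0.05. Effector differences reach 3.87 at Aurkb, and LSEC-primed differences reach 1.63. Genes are sorted by the effector difference, which lies near 0 at the bottom of the plot, where Pttg1 was called lower.

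Per-array values are given in the order naive 1, 2, 11, 12, 13, LSEC-primed 4, 7, 14, 15, effector 6, 8, 10, 16, 17 and memory 3, 5, 9. Beside the counts by role stand 11.5% of all features called higher in effector over naive cells and 7.75% in LSEC-primed over naive cells. In LSEC-primed over effector cells 6.81% were called lower. Counts within a role are of few genes and describe that role. They are not read as a contrast between roles. Of the 7 measured genes of CDK1, the cyclins and their regulators, 5 were higher in effector over naive cells (median 1.23) and 2 in LSEC-primed over naive cells (median 0.18), and 5 were lower in LSEC-primed than in effector cells. Cdk1, the kinase that starts mitosis, read 6.64, 6.76, 6.64, 6.71 and 6.89 on naive, 7.83, 6.80, 9.13 and 7.99 on LSEC-primed, 9.80, 9.65, 9.98, 10.13 and 10.06 on effector and 6.85, 6.43 and 6.57 on memory arrays. Effector arrays were above all others, LSEC-primed 7 lay inside the naive range, and the other LSEC-primed arrays lay between naive and effector. The rise was 9.18-fold in effector over naive cells (log2 difference 3.20, SE 0.28, limma adjusted p = 1.42e-07) and 2.31-fold in LSEC-primed over naive cells (1.21, SE 0.29, adjusted p = 0.00929). Cdca3, a trigger of mitotic entry that acts in degradation of the CDK1 inhibitor Wee1, followed with 9.66-fold and 2.46-fold. Foxm1, a transcription factor of G2 and M phase genes, read 6.46, 6.55, 6.59, 6.49 and 6.49 on naive, 6.56, 6.45, 7.21 and 6.72 on LSEC-primed, 8.30, 8.17, 8.17, 8.62 and 8.40 on effector and 6.64, 6.82 and 6.31 on memory arrays. It rose 3.52-fold in effector cells (adjusted p = 1.7e-08), while the LSEC-primed arrays overlapped the naive ones (log2 difference 0.22, SE 0.14, adjusted p = 0.446). Ccna2, cyclin A2, and Cdc25c, a phosphatase that activates CDK1, were at background on every naive array and at least 1.28-fold and at least 1.84-fold higher in effector cells (adjusted p = 6.25e-05 and 1.42e-07). Ccnb2, cyclin B2, and Cks2, a CDK subunit, did not exceed background on any naive, LSEC-primed or effector array, so nothing can be said of their level.

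The 7 mitotic kinases and members of the chromosomal passenger complex were the group with the highest median difference, 3.21 in effector over naive cells, where all 7 were called higher. In LSEC-primed over naive cells the median was 1.20, 5 of the 7 were called higher, and the arrays did not overlap for any of the 7. Of all features, 7.75% were called higher there and 7.74% were higher without overlap. Plk1, the Polo kinase of spindle assembly and mitotic exit, read 6.97, 7.69, 6.81, 6.71 and 7.16 on naive, 8.62, 8.49, 9.39 and 8.28 on LSEC-primed, 10.64, 10.14, 10.45, 10.32 and 9.98 on effector and 7.24, 8.37 and 6.67 on memory arrays. The 3 ranges from naive to effector were separate, and memory 5 reached into the LSEC-primed range. Its rise was 9.45-fold in effector (adjusted p = 1.32e-07) and 3.09-fold in LSEC-primed cells over naive cells (log2 difference 1.63, SE 0.30, adjusted p = 0.000961). Aurkb, the catalytic subunit of the passenger complex, which corrects faulty attachments, read 6.45, 6.75, 6.69, 6.73 and 6.81 on naive, 7.67, 6.83, 9.29 and 8.23 on LSEC-primed, 10.62, 10.52, 10.37, 10.77 and 10.50 on effector and 7.00, 5.97 and 6.29 on memory arrays. LSEC-primed 7 lay just above the highest naive array and LSEC-primed 14 came closest to the effector range. With 14.6-fold (log2 difference 3.87, SE 0.31, adjusted p = 6.79e-08) Aurkb had the largest difference of the 48 genes in effector over naive cells, and with 5.87-fold it was also the furthest below effector in LSEC-primed cells (-2.55, SE 0.33, adjusted p = 3.35e-05). Its partners Cdca8 (borealin) and Birc5 (survivin) were 9.66-fold and 7.97-fold higher in effector than in naive cells and 2.72-fold and 2.29-fold higher in LSEC-primed than in naive cells. Tpx2, which activates Aurora A on spindle microtubules, was 9.23-fold and 2.23-fold higher. Incenp, the scaffold of the complex, and Aurka, the centrosomal Aurora kinase, were 3.75-fold and 8.74-fold higher in effector cells but were not called in LSEC-primed over naive cells (log2 differences 0.73 and 0.74, adjusted p = 0.0702 and 0.0528).

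**Figure D4:**
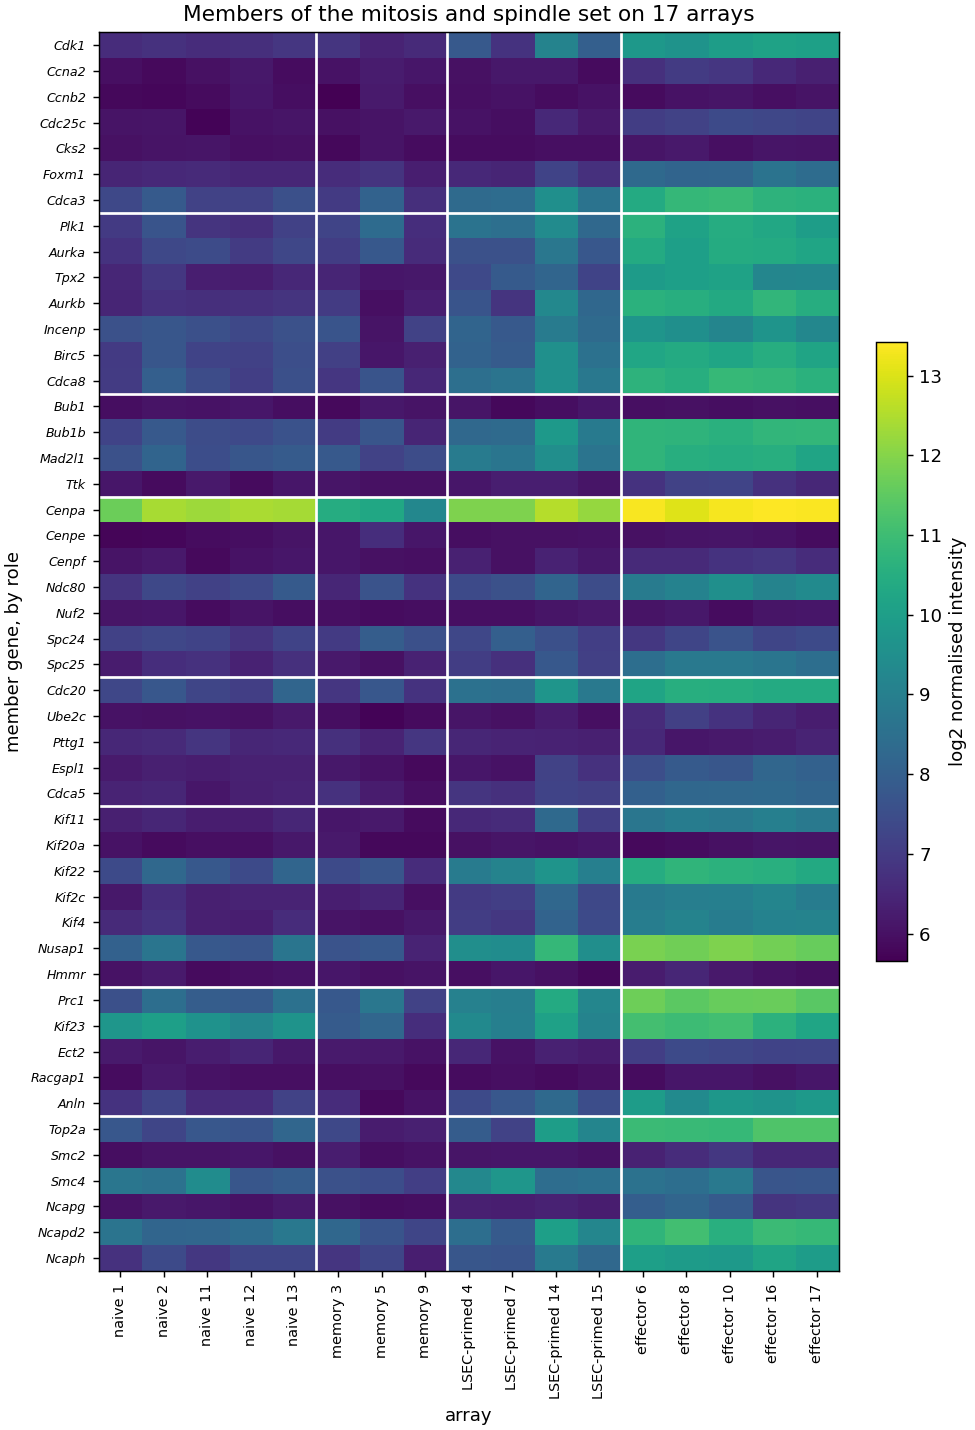
Log2 normalised intensity of the 48 members on the 17 arrays, with genes in rows by role (white lines separate roles) and arrays in columns by group. The effector block is bright for most genes, LSEC-primed array 14 is the brightest of its group, and 7 genes, among them Bub1 and Ccnb2, stay dark on every effector array.

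Of the 4 spindle checkpoint genes, 3 were higher in effector over naive cells (median 1.78), 2 were higher in LSEC-primed over naive cells (median 0.66), and 3 were lower in LSEC-primed than in effector cells. Bub1b, the checkpoint protein BubR1, read 7.23, 7.83, 7.46, 7.38 and 7.61 on naive, 8.29, 8.33, 9.86 and 8.86 on LSEC-primed, 10.73, 10.69, 10.60, 10.76 and 10.78 on effector and 7.00, 7.72 and 6.44 on memory arrays. Naive, LSEC-primed and effector arrays did not overlap, and its difference over naive was 3.21 in effector (SE 0.26, adjusted p = 6.4e-08) and 1.33 in LSEC-primed cells (SE 0.28, adjusted p = 0.00281). Mad2l1, whose product binds and restrains CDC20, rose 6.54-fold in effector and 2.21-fold in LSEC-primed cells (adjusted p = 3.57e-09 and 0.000286). Ttk, the kinase MPS1 at the top of the checkpoint, was at background on every naive array and at least 1.46-fold higher in effector cells (adjusted p = 3.32e-05). Bub1, the checkpoint kinase of the kinetochore, read 5.93, 6.06, 6.03, 6.13 and 5.94 on naive, 6.09, 5.83, 5.95 and 6.12 on LSEC-primed, 5.96, 6.01, 5.94, 6.00 and 5.98 on effector and 5.85, 6.15 and 6.06 on memory arrays. No array and neither of its 2 probes rose above background, so its probes give no level here.

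Of the 7 centromere and kinetochore genes, 4 were higher in effector over naive cells (median 0.64), 1 was higher in LSEC-primed over naive cells (median 0.17) and 4 were lower in LSEC-primed than in effector cells, while Cenpe and Nuf2 gave no signal above background in these groups. The 1 call over naive cells stands beside 7.75% of all features and is not read as a result about this role. Ndc80, the microtubule-binding subunit of the outer kinetochore, read 6.81, 7.32, 7.16, 7.37 and 7.84 on naive, 7.41, 7.57, 8.15 and 7.46 on LSEC-primed, 8.89, 9.09, 9.51, 9.13 and 9.36 on effector and 6.48, 7.64 and 6.80 on memory arrays. Effector arrays stood apart (3.73-fold over naive, adjusted p = 3.78e-06), and 3 of the LSEC-primed arrays lay inside the naive range (log2 difference 0.35, SE 0.23, adjusted p = 0.476). Cenpa, the histone H3 variant that marks centromeres, read 11.69, 12.40, 12.28, 12.43 and 12.39 on naive, 11.93, 11.91, 12.55 and 12.21 on LSEC-primed, 13.35, 13.06, 13.32, 13.42 and 13.37 on effector and 10.47, 10.28 and 9.26 on memory arrays. LSEC-primed and naive arrays overlapped (-0.09, SE 0.21, adjusted p = 0.913), effector arrays were above both (1.07, SE 0.20, adjusted p = 0.00064) and memory arrays below all others. Spc25, a further subunit of the NDC80 complex, rose 4.20-fold in effector and 1.54-fold in LSEC-primed cells (adjusted p = 5.04e-08 and 0.0242), with LSEC-primed 7 inside the naive range. The LSEC-primed call of Spc25 was lost without LSEC-primed 14 (0.41, adjusted p = 0.0779), naive 1 (0.54, adjusted p = 0.0678) or naive 12 (0.58, adjusted p = 0.0595). Cenpf, a kinetochore and nuclear envelope protein, was at least 1.27-fold higher in effector cells (adjusted p = 3.48e-05). Spc24, also of the NDC80 complex, was not called by its brightest probe in effector over naive cells (0.15, SE 0.19, adjusted p = 0.721), while its second probe differed by 0.80 (adjusted p = 2.99e-05, every probe fitted by itself). The probes of Nuf2, the partner of Ndc80, and Cenpe, a kinetochore motor, were at background on every effector and naive array.

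Among the 5 genes of anaphase onset and sister chromatid separation, 4 were higher and 1 lower in effector over naive cells (median 1.57). Cdc20, the activator of the anaphase-promoting complex, read 7.31, 7.77, 7.27, 7.09 and 8.20 on naive, 8.54, 8.50, 9.70 and 8.80 on LSEC-primed, 10.18, 10.52, 10.50, 10.39 and 10.40 on effector and 6.90, 7.78 and 6.81 on memory arrays. Each LSEC-primed array lay between the naive and the effector range, with rises over naive of 2.56-fold in LSEC-primed (log2 difference 1.36, SE 0.26, adjusted p = 0.00166) and 7.32-fold in effector cells (2.87, SE 0.25, adjusted p = 1.38e-07). Cdca5 (sororin), which protects cohesin, rose 1.53-fold and 3.58-fold (adjusted p = 0.00534 and 1.26e-08). Espl1 (separase), the protease that cuts cohesin, rose 2.97-fold in effector cells (adjusted p = 4.05e-06) and was not called in LSEC-primed over naive cells (0.21, adjusted p = 0.659). Ube2c, the ubiquitin-conjugating enzyme of the complex, read 6.02, 6.00, 6.03, 6.00 and 6.17 on naive, 6.09, 6.01, 6.25 and 5.98 on LSEC-primed, 6.62, 7.13, 6.80, 6.45 and 6.26 on effector and 5.95, 5.72 and 5.88 on memory arrays. It exceeded background on 4 of the 5 effector arrays, with effector 17 at background, and on no naive, LSEC-primed or memory array, giving at least 1.23-fold over naive cells (adjusted p = 0.00111). Pttg1 (securin), the inhibitor of separase, was called against the rest and read 6.53, 6.57, 6.85, 6.48 and 6.54 on naive, 6.47, 6.43, 6.40 and 6.35 on LSEC-primed, 6.54, 6.13, 6.18, 6.25 and 6.42 on effector and 6.73, 6.43 and 6.88 on memory arrays. The Pttg1 probe lay close to background, which it exceeded on 5 of 5 naive, 3 of 4 LSEC-primed, 2 of 5 effector and 2 of 3 memory arrays. Effector 6 lay above 3 of the naive arrays, so the ranges overlapped, and the call on a log2 difference of -0.29 (SE 0.10, adjusted p = 0.0446) was lost without any 1 of naive samples 1, 2, 11 or 13 or effector samples 8, 10 or 16, where Pttg1 differed by -0.30 to -0.22 (adjusted p = 0.0569 to 0.132). Without background correction Pttg1 differed by -0.15 (adjusted p = 0.0543), and with median scaling by -0.25 (adjusted p = 0.221).

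Of the 7 spindle motors and microtubule proteins, 5 were higher in effector over naive cells (median 2.52), the same number were higher in LSEC-primed over naive cells (median 0.85), and 5 were lower in LSEC-primed than in effector cells. Kif11, the kinesin that pushes spindle poles apart, read 6.33, 6.50, 6.27, 6.27 and 6.48 on naive, 6.56, 6.62, 8.30 and 7.11 on LSEC-primed, 8.69, 8.90, 8.80, 8.99 and 8.80 on effector and 6.12, 6.18 and 5.89 on memory arrays. LSEC-primed 4 and 7 lay just above the naive range and 14 well above it. The rise was 5.53-fold in effector (adjusted p = 3.65e-07) and 1.71-fold in LSEC-primed cells (log2 difference 0.78, SE 0.25, adjusted p = 0.0469). The LSEC-primed call of Kif11 was lost with the authors' processed values (adjusted p = 0.0685) and without any 1 of the naive samples or LSEC-primed 15, and without LSEC-primed 14 the difference was 0.39 (adjusted p = 0.0421). Nusap1, which bundles spindle microtubules near chromatin, read 8.08, 8.69, 7.80, 7.71 and 8.69 on naive, 9.50, 9.44, 10.84 and 9.50 on LSEC-primed, 11.88, 11.75, 11.93, 11.77 and 11.63 on effector and 7.63, 7.80 and 6.44 on memory arrays. The naive, LSEC-primed and effector ranges were separate, with 12.1-fold in effector (3.60, SE 0.30, adjusted p = 7.7e-08) and 3.1-fold in LSEC-primed over naive cells (1.63, SE 0.31, adjusted p = 0.00155). Kif22, a chromosome-arm kinesin, rose 6.72-fold and 2.57-fold, Kif2c, a microtubule depolymerase, 6.03-fold and 2.01-fold, and Kif4, a chromokinesin of the midzone, 5.72-fold and 1.81-fold. Kif20a, a kinesin of cytokinesis, was at background on every array, and Hmmr, a spindle assembly factor, exceeded background on 1 effector array alone.

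For midzone and cytokinesis, 4 of 5 genes were higher in effector over naive cells (median 1.15), 2 in LSEC-primed over naive cells (median 0.06), and 4 were lower in LSEC-primed than in effector cells. Prc1, which cross-links the antiparallel microtubules of the midzone, read 7.55, 8.45, 7.94, 7.88 and 8.54 on naive, 9.05, 8.97, 10.39 and 9.23 on LSEC-primed, 11.71, 11.48, 11.61, 11.63 and 11.43 on effector and 7.79, 8.73 and 7.20 on memory arrays. It was 11.3-fold higher in effector (3.50, SE 0.29, adjusted p = 7.47e-08) and 2.53-fold higher in LSEC-primed over naive cells (1.34, SE 0.30, adjusted p = 0.00578), with no overlap between those groups. Kif23, a kinesin subunit of centralspindlin, read 9.74, 10.05, 9.62, 9.22 and 9.66 on naive, 9.35, 9.00, 10.10 and 9.12 on LSEC-primed, 11.09, 10.99, 11.08, 10.66 and 10.24 on effector and 7.87, 8.23 and 6.66 on memory arrays. It was higher in effector over naive cells (1.15, SE 0.27, adjusted p = 0.00433), and LSEC-primed arrays overlapped naive ones (-0.27, SE 0.29, adjusted p = 0.74). Anln (anillin), which anchors the contractile ring, rose 7.06-fold in effector and 1.79-fold in LSEC-primed cells (adjusted p = 1.06e-08 and 0.0104). Ect2, the exchange factor that activates RhoA, rose 2.02-fold in effector cells (adjusted p = 2.33e-07) and was not called in LSEC-primed over naive cells (log2 difference 0.06, adjusted p = 0.862). Racgap1, the partner of Kif23 in centralspindlin, was at background on every array.

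The 6 measured chromosome structure genes comprised 5 that were higher in effector over naive cells (median 1.91) and 1, Ncaph, that was higher in LSEC-primed over naive cells (median 0.49). That 1 call stands beside the 7.75% of all features called higher in LSEC-primed over naive cells and is not read as a result about the role. Top2a, the topoisomerase that untangles sister chromatids, read 7.78, 7.28, 7.76, 7.68 and 8.21 on naive, 7.93, 7.18, 9.99 and 9.19 on LSEC-primed, 10.96, 10.91, 10.86, 11.27 and 11.29 on effector and 7.35, 6.25 and 6.35 on memory arrays. LSEC-primed 4 and 7 lay inside or below the naive range, and 14 and 15 above it. The effector rise was 9.95-fold (3.32, SE 0.39, adjusted p = 4.82e-06), the LSEC-primed difference over naive cells was not called on the brightest Top2a probe (0.83, SE 0.41, adjusted p = 0.265) but was on a second (0.68, SE 0.19, adjusted p = 0.0307, every probe fitted by itself), and LSEC-primed cells were 5.59-fold below effector cells (adjusted p = 0.000366). Of the condensin I subunits, Ncapd2 was 5.23-fold higher in effector cells (adjusted p = 1.02e-05) and Ncaph 7.28-fold (adjusted p = 2.29e-08). Ncapg, at background on every naive array, was at least 2.29-fold higher, with 7.99, 8.18 and 7.85 on effector 6, 8 and 10 and 6.81 and 6.93 on effector 16 and 17. Smc2, one of the condensin ATPases, was at least 1.19-fold higher (adjusted p = 0.000102). Smc4, the other ATPase, read 8.70, 8.57, 9.44, 7.72 and 7.91 on naive, 9.29, 9.73, 8.43 and 8.53 on LSEC-primed, 8.57, 8.47, 8.79, 7.71 and 7.75 on effector and 7.59, 7.48 and 7.10 on memory arrays. On this, the brightest Smc4 probe, the naive, LSEC-primed and effector ranges overlapped and no difference among them was called, with log2 differences of -0.21 in effector over naive cells (95% interval ± 0.69) and 0.74 in LSEC-primed over effector cells (± 0.73).

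Probes at background carry no level. In all, 7 members (Ccnb2, Cks2, Bub1, Cenpe, Nuf2, Kif20a and Racgap1) were at background on every effector and every naive array, and none was called in that comparison. The other members not called were Spc24, Hmmr and Smc4. With each of the 96 member probes fitted by itself, an alternative added after seeing the data, 63 were called higher and none lower in effector over naive cells (7.93% of all probes higher), and 23 of the 96 were at background on every effector array. Several probes of 1 gene did not always move together. Top2a had a second probe with a difference of 1.29 (adjusted p = 3.53e-05) beside the 3.32 of its brightest. Kif23 had a second probe with a difference of 1.28 (adjusted p = 0.00087) and another of -0.21 (adjusted p = 0.778). The further 2 probes of Cdk1 were at background on every array.

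The LSEC-primed arrays spread more widely in the member mean (SD 0.33) than the other groups (SD 0.06 to 0.19). LSEC-primed 14 was higher than sample 4 in 42 of 48 members, than sample 7 in 39 and than sample 15 in 40. The median was -0.73 for 4 minus 14, -0.61 for 7 minus 14 and 0.56 for 14 minus 15 on the log2 scale. Over all named genes, which the normalisation keeps level, the medians were 0.01, 0.02 and -0.00. Samples 4 and 7 differed by a median of 0.03, with 27 of the 48 higher in sample 4. Above every naive array were 26 members on LSEC-primed 4, 25 on 7, 36 on 14 and 29 on 15, where 25.8% to 30.5% of named genes were. On effector arrays 37 to 41 members were above every naive array, where 25.1% to 27.4% of named genes were. Plk1, Cdc20, Nusap1 and Kif22 exceeded the naive range on every LSEC-primed array, with 8.88, 9.13, 9.69 and 9.00 for Kif22 against at most 8.29 in naive cells. Top2a and Ncapd2 (8.46, 7.86, 10.04 and 9.23) exceeded it on samples 14 and 15 alone. Sample 14 is the array with the Y-linked and the MHC class II signal, and has the lowest endothelial and stellate marker sums of its group. Without it, 19 of the 20 calls over naive cells remained (Spc25 was lost), the median difference over naive cells was 0.34 in place of 0.49, and all 37 calls below effector cells remained with a median of -1.62.

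**Figure D5:**
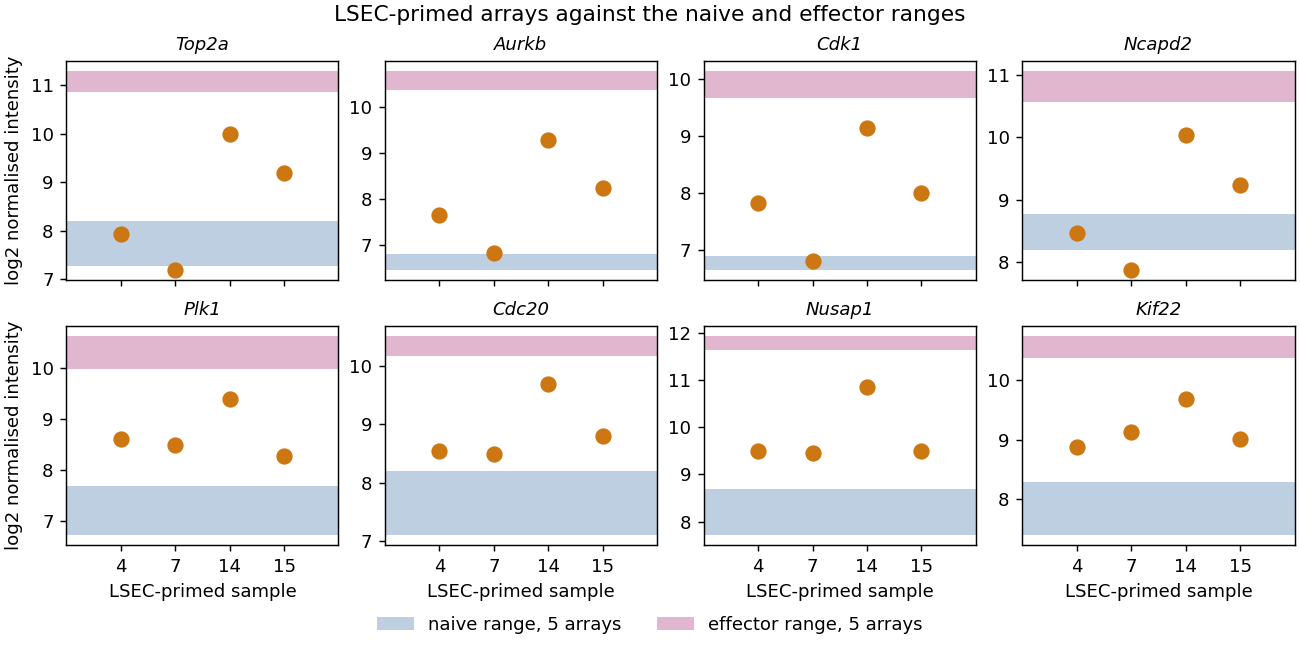
Log2 normalised intensity of 8 members on LSEC-primed samples 4, 7, 14 and 15 (points), over the range of the 5 naive arrays (lower band) and of the 5 effector arrays (upper band). In the upper row samples 4 and 7 lie at or near the naive band for Top2a and Ncapd2, and in the lower row Plk1, Cdc20, Nusap1 and Kif22 lie between the bands on every array.

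Between memory and naive cells 44 of the 48 members were not called, and 15 of the 48 were at background on every array of both groups. With 3 memory arrays, the lack of a call does not show an equal level. The difference was negative for 37 of the 48, members at background included. Members were called lower at about the share of all features, and Cenpa and Kif23 fell furthest. In memory over naive cells 3 members were called lower and 1 higher, where 6.30% of all features were called lower and 5.63% higher, and the median member difference was -0.17, which turned to 0.14 under cyclic loess normalisation. Naive and memory arrays did not overlap for 8 members lower and 1 higher, against 7.68% and 6.87% of all features. The largest falls were those of Cenpa (log2 difference -2.24, SE 0.23, 4.71-fold lower, adjusted p = 5.24e-06) and Kif23 (-2.07, SE 0.32, 4.2-fold lower, adjusted p = 0.000262), whose 3 memory arrays lay below every other array. A second Kif23 probe was lower by -1.24 (adjusted p = 0.0089) and another differed by 0.75 (adjusted p = 0.138), both with every probe fitted by itself, and a second, dimmer Cenpa probe by -0.05 (adjusted p = 0.831). Anln was called lower (-0.72, adjusted p = 0.0488), a call of Anln that was lost without memory 5 (-0.55, adjusted p = 0.241), memory 9 (-0.65) or naive 1, 2 or 13 (-0.74, -0.63 and -0.64), and under cyclic loess the difference was 0.10. Cenpe was called higher (0.41, adjusted p = 0.0205) although its probe was at background on every naive and memory array, with 6.66 on memory 5 against 6.13 and 6.11 on memory 3 and 9, and without memory 5 Cenpe differed by 0.22 (adjusted p = 0.132). Leaving out memory samples 3 and 5, an alternative added after seeing the data, leaves memory 9 alone, which has the lowest member mean of its group and is assumed to vary like the samples of the other groups. Set against that 1 array, 4 members were called lower and none higher, with Cenpa and Kif23 among the calls and Anln and Cenpe not. Top2a and Smc4 had the next lowest differences (-1.09 and -1.08, adjusted p = 0.141 and 0.0765), and Plk1 (0.36) and Spc24 (0.35) the highest after Cenpe, followed by Ccna2 at background in both groups, with none of these called by the brightest probe. Another Smc4 probe, fitted by itself, was lower in memory over naive cells (-1.52, adjusted p = 0.00645). Below every naive array were 18, 21 and 35 of the 48 members on memory 3, 5 and 9, where 24.5%, 31% and 22.2% of named genes were.

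Against effector cells, memory cells were lower in 37 members and higher in 1, where 11.9% of all features were called lower and 10.8% higher, with a median of -2.46 beside 0.01. The arrays did not overlap for 38 members lower and 1 higher in memory cells, against 12.9% and 11.4% of all features. Nusap1 was 22.7-fold lower (-4.50, SE 0.34, adjusted p = 3.84e-08), Top2a 21.2-fold (-4.41, adjusted p = 1.22e-06), Aurkb 17.6-fold (-4.14, adjusted p = 2.03e-07) and Birc5 13.8-fold (-3.79, adjusted p = 7.08e-08). Tpx2, Kif4, Kif2c and Kif11, at background on every memory array, were at least 7.52-fold, 4.73-fold, 4.57-fold and 4.11-fold lower. Pttg1 was the member called higher (0.38, SE 0.11, adjusted p = 0.023), a call of Pttg1 lost without memory 3 or 9 or effector 8 or 10 (0.28 to 0.35, adjusted p = 0.054 to 0.122). The call of Pttg1 was also lost with median scaling (0.15, adjusted p = 0.493) and when only the 2 groups entered the fit (adjusted p = 0.0832). Its probe exceeded background on 2 of 5 effector and 2 of 3 memory arrays. Spc24 (0.19) was not called, nor were Cenpe and Bub1, both at background on every array. With memory 9 as the lone memory array all 38 calls remained. In LSEC-primed over memory cells 26 members were called higher and none lower, where 7.93% of all features were called higher and 5.40% lower, with a median of 1.03 beside 0.01. The arrays did not overlap for 23 members higher and 1 lower, against 9.89% and 7.38% of all features. Nusap1 (2.53, SE 0.36, adjusted p = 0.000125), Cenpa (2.15, SE 0.24, adjusted p = 1.57e-05), Birc5 (1.99, adjusted p = 0.000402) and Top2a (1.92, adjusted p = 0.0108) had the largest differences, followed by Kif22 (1.92, adjusted p = 7.68e-05). The 4 lowest were Pttg1 (-0.27, not called) and Cenpe, Hmmr and Ccna2, whose probes were at background on every LSEC-primed and memory array and were not called. The count of 26 was 6 under cyclic loess, 12 when only these 2 groups entered the fit, and 20 against memory 9 alone. Without memory 5 the calls of Aurkb, Cdk1, Ncapd2 and Top2a were lost (1.36, 1.23, 1.14 and 1.72, adjusted p = 0.0546 to 0.117), and Incenp moved from 1.32 to 0.87.

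The LSEC-primed cells fell short of the effector level most for Aurkb (-2.55), Top2a (-2.48), Aurka (-2.39, 5.23-fold lower, adjusted p = 2.16e-06) and Prc1 (-2.16, 4.47-fold lower, adjusted p = 7.02e-05). The 4 highest differences in LSEC-primed over effector cells were those of Smc4 (0.74), Spc24 (0.19), Pttg1 (0.11) and Kif20a (0.07), none of them called, and Kif20a at background in both groups. Other probes of Smc4 and Spc24, each fitted by itself, were called in opposite directions in LSEC-primed over effector cells, Smc4 higher by 1.21 (adjusted p = 0.0139) and Spc24 lower by -0.66 (adjusted p = 0.000685). Against naive cells, the highest were Nusap1 and Plk1 (both 1.63), Cdca8 (1.44, adjusted p = 0.000522) and Kif22 (1.36, adjusted p = 0.000433), and the lowest Kif23 (-0.27), Pttg1 (-0.18), Cenpa (-0.09) and Cks2, whose probe was at background on every array. All 37 members called lower than in effector cells kept that call without any single sample of either group. By their brightest probes, Foxm1, Ect2, Espl1, Ndc80, Ncapd2, Top2a, Cenpa and Kif23 were among the genes called in effector over naive cells and not in LSEC-primed over naive cells, with adjusted p between 0.265 and 0.913 in the latter, although the second Top2a probe was called there.

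Over the 17 arrays, Pearson's r of each gene with the mean of the other members was highest for Kif2c, Ncaph and Bub1b (each 0.99). It was 0.80 for Cenpa, 0.81 for Kif23, 0.11 for Smc4, -0.02 for Spc24 and -0.73 for Pttg1, whose probe lay close to background. The points share 4 groups and 1 normalisation, so these values describe the set and carry no test.

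Other genes of the pathway were read from lists that are not members. Of all features, 11.5% were called higher and 11.4% lower in effector over naive cells. The shares were 7.75% and 5.39% in LSEC-primed over naive cells, and 7.99% and 6.81% in LSEC-primed over effector cells. Of 26 measured other kinetochore and checkpoint genes, 17 were higher and 1 lower in effector over naive cells (median 0.71), 7 were higher in LSEC-primed over naive cells (median 0.15), and 17 were lower and 1 higher in LSEC-primed over effector cells. Kntc1, the ROD subunit that recruits dynein to kinetochores, differed by 2.89 in effector over naive and by 0.79 in LSEC-primed over naive cells (adjusted p = 0.00296 for the latter), Cenpk by 2.49 and 0.99, and Cenpw by 2.32 and 0.62. Of 31 DNA replication genes, 29 were higher and 1 lower in effector over naive cells (median 1.43), 16 higher and 1 lower in LSEC-primed over naive cells (median 0.53), and 27 lower in LSEC-primed than in effector cells. Mcm10, a replication initiation factor, and Tk1, thymidine kinase, differed by 3.35 and 3.16 in effector and by 1.41 and 1.26 in LSEC-primed over naive cells (adjusted p = 3.42e-05 and 0.00636 for the latter). Cdt1, the licensing factor, was the replication gene called lower in LSEC-primed over naive cells (-1.43, adjusted p = 2.49e-05).

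Further lists covered the DREAM, MuvB, B-Myb and E2F factors, the anaphase-promoting complex, cohesin, condensin II and mitotic entry and exit control. Of all features, 11.5% were called higher and 11.4% lower in effector over naive cells, and 7.75% and 5.39% in LSEC-primed over naive cells. Counts of a few genes in these short lists describe the lists and are not read as exceeding those shares. Of 19 DREAM, MuvB, B-Myb and E2F genes, 11 were higher and 2 lower in effector over naive cells (median 0.46), and 3 were higher and 1 lower in LSEC-primed over naive cells (median 0.23). E2f1, an activator of S phase genes, differed by 1.99 in effector and 0.54 in LSEC-primed cells (adjusted p = 0.00233 for the latter), and Tfdp1, its dimer partner, by 1.40 and 1.27 (adjusted p = 1.01e-05 and 0.000152). Mybl2, which encodes B-Myb, differed by 1.01 in effector over naive cells (adjusted p = 6.64e-06), E2f2 by 1.57 (adjusted p = 0.000428), and Nfyc, an NF-Y subunit, by -1.11 (adjusted p = 3.02e-07). In LSEC-primed over naive cells E2f6, a repressor, differed by 1.15 and Lin54, the CHR-binding subunit of MuvB, by -0.93 (adjusted p = 8.26e-05 and 0.00587). Of the 15 subunits and activators of the anaphase-promoting complex, 4 were higher and 1 lower in effector over naive cells, led by Fzr1, which encodes the late activator CDH1 (1.62, adjusted p = 5.82e-08). Of 14 cohesin genes, 3 were higher and 3 lower, with the centromere protectors Sgo1 (2.75) and Sgo2a (2.66) and the acetyltransferase Esco2 (2.58) higher and the loader Nipbl lower (-1.56, adjusted p = 0.000285). Among 18 genes of mitotic entry and exit control, 6 were higher and 1 lower in effector over naive cells, where Haspin, the histone H3 kinase, differed by 1.63 and Plk4, the kinase of centriole duplication, by 1.61, while Arpp19, a phosphatase inhibitor, differed by -1.54. Of the 3 condensin II subunits, 1, Ncapg2, was higher (1.64, adjusted p = 1.08e-06). Haspin was also higher in memory over naive cells (1.76, adjusted p = 1.54e-07), where 1 gene of its list was called higher and 2 lower. In that comparison 5.63% of all features were called higher and 6.30% lower.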

How the data were processed

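RNA of 17 samples was hybridised to Illumina mouse bead arrays as biotin-labelled cRNA, per the labels' protocols (QIAzol and miRNeasy extraction, TargetAmp labelling). The authors deposited a table whose values, per the file headers, are non-normalised signal, that is intensity per probe on a linear scale. A second table of intensity was, read from its values, quantile normalised by the authors and served as an alternative. Image analysis software is not given in the sources used here, and 3 further columns that match no labelled sample were left out. The table has no detection p-values, so probes above the array median on at least 3 arrays were kept (35237 of 45281).

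Signals were corrected with normexp (offset 50), set on the log2 scale and quantile normalised in limma 3.58.1 under R 4.3.3. The platform annotation of the probes names 1 gene on 34885 probes, several genes on 18 and no gene on 10378. The brightest probe stood for each gene, which left 23699 features. All 4 groups entered 1 linear model with empirical Bayes moderation (residual df 13, prior df 3.16) and no covariate, since the labels name no batch, and Benjamini-Hochberg adjustment ran across all features. A fold against a group at background on every array is a lower bound, written as at least. The steps were tested on simulated data. Precision is limited by the number of arrays.

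The members, gene lists and tests were chosen with earlier results of these data known. Values on every array were given for 12 measured genes fixed by name (Cdk1, Plk1, Aurkb, Bub1, Ndc80, Cdc20, Ube2c, Pttg1, Kif11, Prc1, Top2a, Foxm1) and for the 3 members with the largest and 3 with the smallest effector over naive difference. The 4 largest and 4 smallest of each comparison, members called against the rest or not called, and up to 3 called genes of each further list were named. Cenpa, Kif23, Bub1b and the members named by role were added after their values were seen. Alternatives were background correction, normalisation, filter, probe summary, moderation, array weights, the groups in the fit and leaving out each sample. Promoters are RefSeq, GRCm38.p6.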

Additional observations from a re-analysis of the deposited data

Results flagged for a closer look

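Of 147 sets of arrays examined (a gene or the member mean within a group of 4 or 5 arrays), 7 held an array far from the others of its group. That is about the number chance alone gives, at 1 in 20, so the arrays below are described and not read as findings. Nusap1 read 10.84 on LSEC-primed sample 14, where the next array read 9.50. Aurka read 8.72 on the same sample, next to 7.77. These 2 stand with the higher values of LSEC-primed 14 in most members, and that array also carries MHC class II, macrophage and Y-linked signal, whose part was not tested. Cenpa read 11.69 on naive sample 1, the lowest of its group, against 12.28 on the next array, and 13.06 on effector sample 8, the lowest of its group, against 13.32. Effector 8 is the sample whose labelled source is spleen. Pttg1 read 6.85 on naive sample 11, the highest of its group, against 6.57, and its call in effector over naive cells was lost without that array. Cdc25c read 5.74 on naive 11 against 6.03, and Ube2c read 6.17 on naive 13 against 6.03, both with every naive array at background.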

How the results depend on the processing

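No paired analysis was possible because the labels number each sample only once across the groups. Of the member counts, member medians and counts over all features, 151 values recomputed under other settings stayed within 1.5 times the count, or within the spread between replicates of the median, and 38 did not. With 1 sample left out, 150 did and 3 did not. For the others the cause was not tested.

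Without background correction the member medians were 1.37 in effector over naive, -1.13 in LSEC-primed over effector, -1.80 in memory over effector and 0.61 in LSEC-primed over memory cells. With the authors' processed values the last pair were -2.22 and 0.83. With median scaling the medians were 2.27, -1.65, -3.19 and 1.34, and 10 members were called in LSEC-primed over naive cells. Median scaling called 3191 features in effector over naive (2264 higher and 927 lower, against 2732 and 2707), 1046 in LSEC-primed over naive and 1524 in LSEC-primed over effector cells (472 higher and 1052 lower, against 1894 and 1614). In the memory comparisons it called 102 higher and 2862 lower over naive (against 1335 and 1492), 271 and 5543 over effector (against 2565 and 2822), and 3878 and 121 in LSEC-primed over memory cells (against 1879 and 1279). With cyclic loess the medians were -1.61 in LSEC-primed over effector, 0.14 in memory over naive, -2.18 in memory over effector and 0.52 in LSEC-primed over memory cells. It called 2 members and 1740 features in memory over naive and 6 members and 1479 features in LSEC-primed over memory cells, and turned Anln in memory over naive cells from -0.72 to 0.10 (adjusted p = 0.941). The stricter filter, which removes dark members, gave medians of 2.43 in effector over naive, 0.74 in LSEC-primed over naive, -2.92 in memory over effector and 1.29 in LSEC-primed over memory cells. The mean of all probes gave 1.48, -1.11 in LSEC-primed over effector, -1.87 and 0.65. Array weights left 2 members and 1883 features in memory over naive and 2024 features in LSEC-primed over memory cells. Fitting only the groups compared left 12 members and 1207 features in LSEC-primed over memory cells. Without memory samples 3 and 5 together, chosen after seeing the data, only memory 9 remains and the spread comes from the other groups. The memory over naive median was then -0.37, with 1508 features called there and 1683 in LSEC-primed over memory cells.

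With 1 sample left out, the members called ranged from 37 to 38 in effector over naive, 18 to 23 in LSEC-primed over naive, 37 to 37 in LSEC-primed over effector, 2 to 6 in memory over naive (2 without memory 5, 6 without memory 3), 37 to 39 in memory over effector and 24 to 26 in LSEC-primed over memory cells. Medians ranged from 1.83 to 1.89, 0.34 to 0.54, -1.62 to -1.29, -0.21 to -0.09, -2.62 to -2.43 and 0.74 to 1.20, with LSEC-primed 14 giving 0.34, -1.62 and 0.74. Features called ranged from 4995 to 5145, 2651 to 2941, 2980 to 3580, 2088 to 3621, 4718 to 5883 and 2429 to 3850, in the same order. Dim probes limit what can be seen, since 7 members gave no signal above background on any naive or effector array, and 3 memory arrays, 2 of them dim, limit the memory comparisons.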
